A study of Homo sapiens with 11 samples.

Results

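The combined knockdown of BCL11A and MBNL1 was set against the mean of the single knockdowns in MDA-MB-231 cells, to see where the combination lay between or outside them. RNA was sequenced 48 h after transfection in 3 libraries with both siRNA pools at 50 nM each (siB/siM), 3 with 100 nM of the pool against BCL11A (siBCL11A) and 3 with 100 nM of the pool against MBNL1 (siMBNL1). Each of these 9 libraries, of 11 in the series, therefore received 100 nM of siRNA in all. The other libraries, 2 with 100 nM of non-targeting siRNA (siNS), did not enter the contrast, and their values are given only for orientation. Genes were included when the deposited table gave values for all 3 knockdowns, which held for 3149 of its 8085 genes. MDA-MB-231 is a mesenchymal-like, triple-negative breast cancer line derived from a pleural effusion, and each siRNA reagent is a pool of several siRNAs against 1 gene. Among the markers of the line, VIM and CAV1 had values for all 3 knockdowns, and their summed level was 1196 to 1228 RPKM in siB/siM, 1242 to 1277 in siBCL11A and 1269 to 1318 in siMBNL1. The other listed markers of the line, CD44, EGFR, AXL and SPARC, and ESR1, PGR, ERBB2 and CDH1, which should be low or absent, were not among the 3149 genes, so the label was checked on VIM and CAV1 only.

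BCL11A is a zinc finger transcription factor that represses genes together with chromatin complexes such as NuRD and SWI/SNF, and it is best known for silencing fetal globin in red cell precursors. MBNL1 is an RNA-binding protein that decides whether alternative exons are kept or skipped and that also acts on the stability and localisation of transcripts. The combination carries a lower dose of each pool than the single knockdowns do, so the lower dose and the presence of the other pool cannot be told apart.

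The values are RPKM, reads scaled by gene length and library size, and each contrast was taken between group means on the log2(RPKM + 1) scale. Every included gene had passed a test by the authors against siNS (adjusted p up to 0.04998 in the authors' deposited table) in each knockdown, out of 6700 listed for siB/siM, 5360 for siBCL11A and 4690 for siMBNL1. A gene moved by only 1 pool is therefore not among them. The mean lay above siNS in all 3 knockdowns for 1523 genes and below it in all 3 for 1583. Effective library sizes, worked out from the RPKM steps of 23 to 39 genes per library, were 32300000 to 34900000 reads in siB/siM, 26800000 to 34600000 in siBCL11A and 25800000 to 34700000 in siMBNL1. BCL11A itself has no value in the table, so its knockdown could not be checked. The labels do not say whether replicates are separate cultures, so the p-values here reflect library-to-library spread, possibly technical.

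For most genes the combination lay close to the mean of the single knockdowns. Over the 3149 genes the contrast, siB/siM minus the mean of siBCL11A and siMBNL1, had a median of 0.04 and an SD of 0.135, with quartiles at −0.04 and 0.11. It lay between −1.23 and 0.62, and the median standard error was 0.06. Only 21 genes reached 0.5 in size, 10 upwards and 11 downwards. By limma with Benjamini-Hochberg adjustment, 335 genes (10.6%) were called at an adjusted p under 0.05, of which 223 (7.08%) were higher in siB/siM than the mean of the single knockdowns and 112 (3.56%) were lower. At an unadjusted p under 0.05 there were 852 genes, 27.1% of all, the share against which the unadjusted counts of gene groups below are to be read. Counts of group members called higher or lower are likewise to be read against the 7.08% and 3.56% of all genes. The largest contrasts were downward, at MBNL1, the cystatins CST1 and CST4 and the collagenase MMP1.

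The number called and its split by direction depended on libraries and scaling. The count fell to 156, 91 and 86 genes without siB/siM replicate 1, 2 or 3, and to 206 and 180 genes without siBCL11A replicate 1 or 2. With the median of each library set equal, 125 genes were higher and 139 lower, and with quantile normalization 108 and 151. Libraries also differed within groups in their deviations from the group mean. In each group the deviations of 1 library ran against transcript GC content. Its Spearman correlation was −0.52 in siB/siM replicate 1, −0.52 in siBCL11A replicate 1 and −0.60 in siMBNL1 replicate 2. The other 2 libraries of each group had the opposite sign (0.20 to 0.38). Deviations from a group mean cancel within that group, so they do not describe differences between groups. Median transcript GC was 53.4% among the genes called higher, 47.5% among those called lower and 47.6% over all genes with a transcript match. After a correction for GC, 192 genes were called higher and 227 lower. This correction also took out overall shifts between libraries: the median contrast was 0.0095 with it and 0.039 without it. The 40 genes placed above both single knockdowns below became 8 and 4 without siBCL11A replicate 1 or 2, and 20, 6 and 9 without siB/siM replicate 1, 2 or 3. The 9 placed below both became 35 after GC correction, and the part of GC in these counts was not tested.

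**Figure D1:**
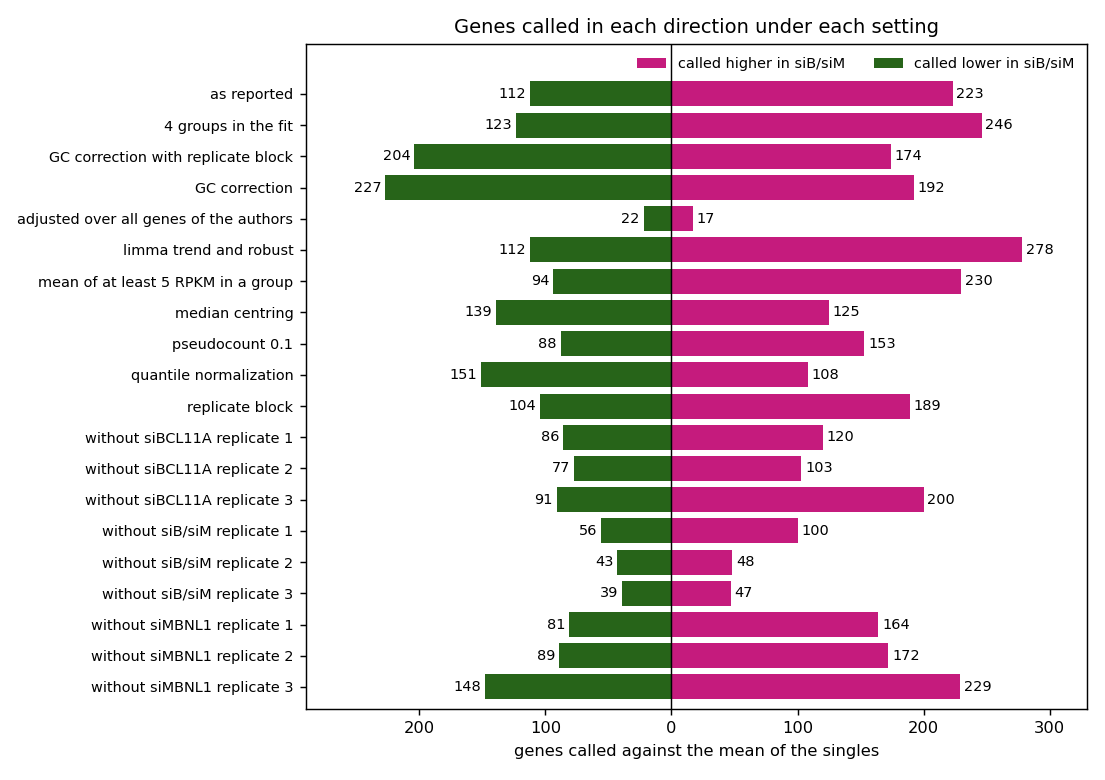
Genes called against the mean of the single knockdowns under each setting (rows), with genes higher in siB/siM to the right and lower to the left of 0. As reported, 223 were higher and 112 lower; the balance turned to 125 and 139 with median centring, and the counts were smallest, at 47 and 39, without siB/siM replicate 3, apart from 17 and 22 after adjustment as if all genes of the authors had been tested.

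A contrast against the mean does not say on which side of a single knockdown the combination lies, so siB/siM was also tested against each single knockdown in the same fit. Against siBCL11A, 266 genes (8.45%) were called, 223 (7.08%) higher and 43 (1.37%) lower in siB/siM. This split by direction depended on scaling. It was 105 higher and 73 lower with median centring, 70 and 74 with quantile normalization and 178 and 161 with GC correction. Against siMBNL1, 832 genes (26.4%) were called, 489 (15.5%) higher and 343 (10.9%) lower. The combination thus differed from siMBNL1 at more genes than from siBCL11A in these libraries. Taking both tests together, it lay above both single knockdowns at 40 genes (1.27%), below both at 9 (0.286%) and between them, apart from each, at 63 (2.0%). At 720 genes only the difference from siMBNL1 was called, and at 154 only that from siBCL11A. For the remaining 2163 genes neither was called, which does not show that the levels were equal. Of the 335 genes called against the mean of the single knockdowns, 226 differed only from siMBNL1, 39 only from siBCL11A, 40 lay above both, 9 below both and 16 between, while 5 differed from neither. Counting libraries instead, all 3 siB/siM values lay above all 6 single-knockdown values at 234 genes (7.43%) and below all 6 at 43 (1.37%).

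**Figure D2:**
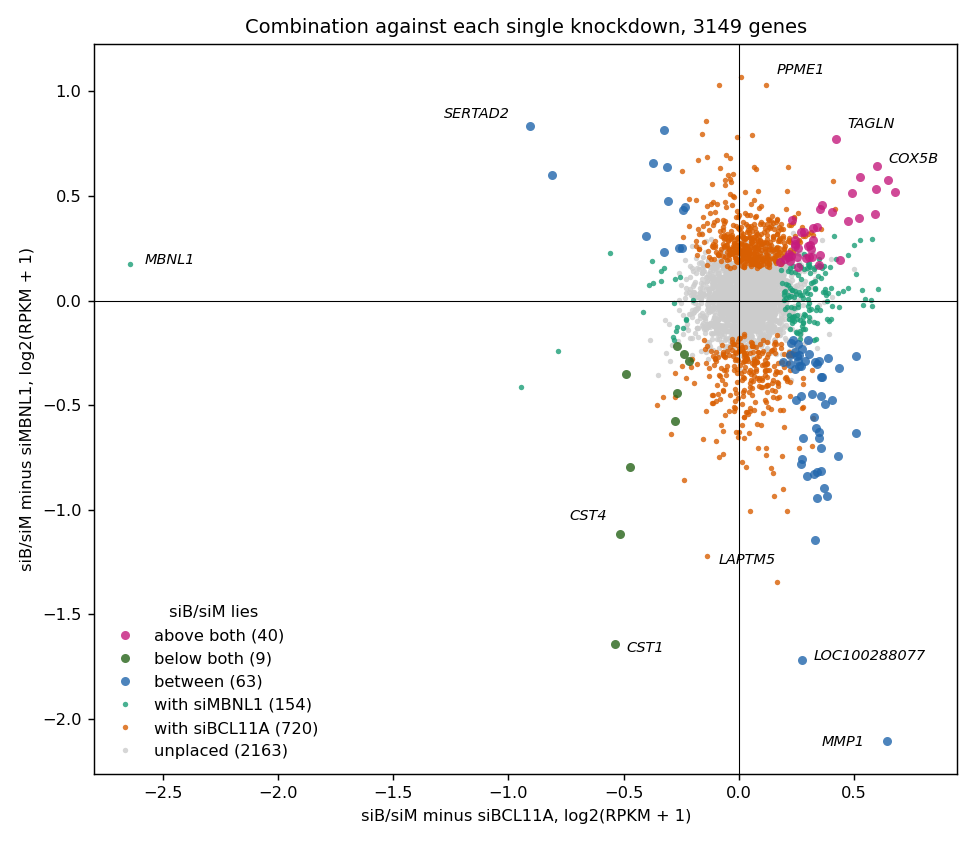
Each point is 1 of 3149 genes, with siB/siM minus siBCL11A on the x axis and siB/siM minus siMBNL1 on the y axis, both on log2(RPKM + 1), coloured by the tests of the 2 differences. The upper right holds the 40 genes above both single knockdowns, the lower left the 9 below both, and the other corners the 63 genes between; MBNL1 stands alone at the far left.

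MBNL1, the target of 1 pool, had the lowest contrast of all genes. Its level was 3.53, 3.65 and 3.56 RPKM in siB/siM, against 27.7, 27.5 and 27.6 RPKM in siBCL11A and 3.17, 3.52 and 2.55 in siMBNL1, with 10.2 and 9.77 RPKM in siNS. The combination thus lay at the siMBNL1 level and far from the siBCL11A level, which was the only one above siNS. The contrast to the mean of the single knockdowns was −1.23 ± 0.07 (SE; limma, adjusted p = 1.2e-06). Against siMBNL1 alone the difference was 0.18 ± 0.08 (adjusted p = 0.113), and it was called, with the combination slightly higher, after GC correction and without siMBNL1 replicate 2. The paralog MBNL2 has no siMBNL1 value and was not fitted.

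Where the single knockdowns were far apart, the combination usually sat nearer to siBCL11A. This was described at the 200 genes whose single knockdowns were called apart by at least 0.5 on the log2 scale, with a relative position that is 0 at the siMBNL1 level and 1 at the siBCL11A level. Its median was 0.73, with quartiles of 0.616 and 0.888, and 174 of the 200 genes lay past the midpoint on the siBCL11A side. This held on both sides, for 47 of 55 genes higher in siBCL11A than in siMBNL1 and for 127 of 145 genes lower in it. Only 3 genes had a position under 0 and 18 a position over 1. The medians of single siB/siM libraries were 0.723, 0.730 and 0.767. No test was attached to this description.

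**Figure D3:**
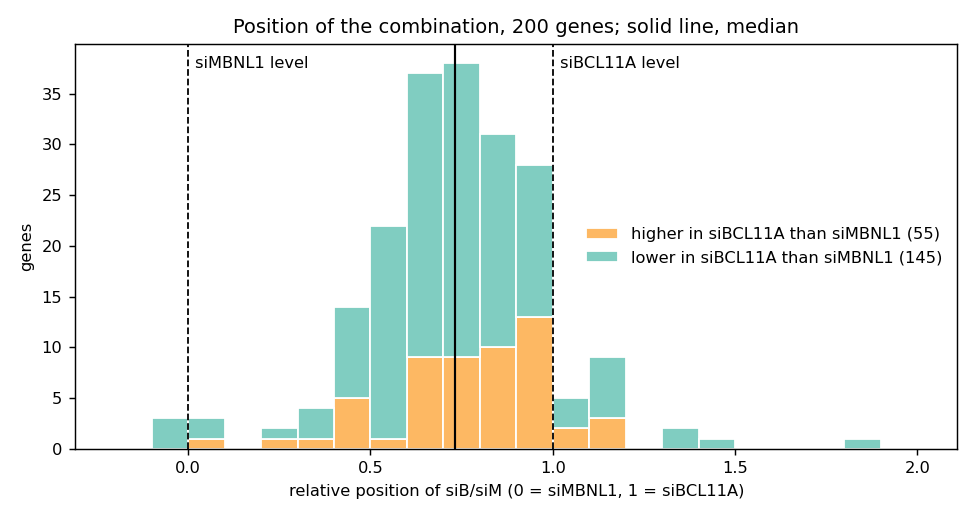
Histogram of the relative position of siB/siM over the 200 genes whose single knockdowns were called apart by at least 0.5 (log2), with 0 at siMBNL1 and 1 at siBCL11A (dashed lines) and the median of 0.73 as the solid line. Colours split the 55 genes higher in siBCL11A from the 145 lower in it, and both sets peak on the siBCL11A side of the midpoint.

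MMP1, the interstitial collagenase, had the widest gap of the genes higher in siMBNL1. The 3 siB/siM libraries had 12.9, 11.2 and 10.6 RPKM, against 7.75, 6.63 and 6.79 RPKM in siBCL11A and 53.1, 55.4 and 50.5 in siMBNL1, with 84.5 and 80.1 RPKM in siNS. None of the 3 groups overlapped, and the combination was low but not as low as siBCL11A alone. Its difference was 0.64 ± 0.08 from siBCL11A (adjusted p = 0.00157) and −2.10 ± 0.08 from siMBNL1 (adjusted p = 1.55e-08), for a contrast to the mean of −0.73 ± 0.07 and a relative position of 0.77. This place between the single knockdowns was kept under all 19 alternatives. LOC100288077 behaved similarly at low level, with mean values of 1.33 RPKM in siB/siM, 0.922 in siBCL11A and 6.65 in siMBNL1, but its difference from siBCL11A was called under only 7 of 17 alternatives.

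Other genes lay between as well. GPR116, an adhesion G protein-coupled receptor, had 24.98, 23.8 and 23.95 RPKM in siB/siM, against 20.1, 18.6 and 18.5 in siBCL11A and 57.6, 56.8 and 50.4 in siMBNL1. ELL2, an elongation factor of RNA polymerase II, had 11.2, 11.9 and 11.6 RPKM in siB/siM, against 8.46, 8.94 and 8.56 in siBCL11A and 22.4, 24.5 and 22.2 in siMBNL1. In both genes the libraries of each group stood clear of the next group, with relative positions of 0.78 and 0.71. The opposite order occurred at SERTAD2, a SERTA domain transcriptional regulator, with 4.60, 4.78 and 4.43 RPKM in siB/siM, against 9.78, 9.87 and 8.87 in siBCL11A and 2.16, 2.43 and 1.85 in siMBNL1. SERTAD2 lay almost at the midpoint (0.48), and so did HDHD1, a pseudouridine phosphatase, at 0.43. CAV1, the coat protein of caveolae, lay at 0.43 with 139, 139 and 128 RPKM in siB/siM, between 179 to 181 RPKM in siBCL11A and 101 to 118 in siMBNL1. These genes, apart from those fixed by rule, were chosen after their values were seen.

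A small set of genes followed siMBNL1 instead. Apart from MBNL1, the relative position was under 0.1 at VWA1, an extracellular matrix protein (−0.10), PYCARD, the inflammasome adaptor ASC (−0.01), EEF1A2, a translation elongation factor (at 0 within rounding), COL5A1, a fibrillar collagen chain (0.03), and CCDC88C, a regulator of WNT signalling (0.04). COL5A1 had 45.2, 51.4 and 55.0 RPKM in siB/siM, against 32.1, 33.1 and 38.0 in siBCL11A and 54.9, 46.1 and 52.7 in siMBNL1. The siB/siM and siMBNL1 libraries of COL5A1 were interleaved, and all 6 lay above the siBCL11A libraries. Its contrast to the mean, 0.26 ± 0.08, missed the threshold (adjusted p = 0.0545), but passed it under 8 of 19 alternatives, among them the replicate block, GC correction with and without the block, 4 groups in the fit and trend and robust options. CCDC88C showed the same order, with 5.66, 5.97 and 5.99 RPKM in siB/siM, 3.22, 3.89 and 3.73 in siBCL11A and 6.06, 5.73 and 6.18 in siMBNL1, and its contrast of 0.28 ± 0.06 passed (adjusted p = 0.014).

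At other genes the combination could not be told from siBCL11A while lying far from siMBNL1. LAPTM5, a lysosomal membrane protein best known from blood cells, had 6.72, 7.48 and 5.68 RPKM in siB/siM, against 7.01, 7.63 and 7.39 in siBCL11A and 16.8, 16.6 and 16.7 in siMBNL1. The siB/siM and siBCL11A ranges overlapped and lay under all siMBNL1 values (contrast −0.68 ± 0.07, adjusted p = 0.000175). SLCO4A1, an organic anion transporter, had 1.64, 1.56 and 1.16 RPKM in siB/siM, against 1.13, 1.15 and 1.25 in siBCL11A and 5.17, 5.04 and 5.43 in siMBNL1 (−0.59 ± 0.06). PPME1, which demethylates the catalytic subunit of protein phosphatase PP2A, went the other way, with 158, 174 and 171 RPKM in siB/siM, against 147, 161 and 155 in siBCL11A and 83.1, 79.0 and 82.4 in siMBNL1 (0.57 ± 0.05). SLC9A3R2, a PDZ scaffold of ion exchangers, had 26.2, 30.7 and 29.1 RPKM in siB/siM, 26.5, 27.05 and 32.0 in siBCL11A and 15.3, 10.2 and 14.4 in siMBNL1 (0.54 ± 0.11), a call lost without siB/siM replicate 2 or 3. For LAPTM5, SLCO4A1 and PPME1 the call and the position held under all 19 alternatives.

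The 9 genes below both single knockdowns were CST1, CST4, FLJ35776, TIMP3, NDP, ETV1, MAPRE2, TMCC3 and AOX1. In all 9 the siB/siM mean was also farther from siNS than either single knockdown, which follows from the single knockdowns lying below siNS too. CST1 and CST4 encode salivary-type cystatins, secreted inhibitors of cysteine proteases. CST1 had 4.98, 7.20 and 5.25 RPKM in siB/siM, against 7.21, 9.72 and 9.58 in siBCL11A and 23.5, 20.8 and 16.5 in siMBNL1, with 56.7 and 57.9 in siNS. Its highest siB/siM library lay just under the lowest siBCL11A library, and the difference from siBCL11A was −0.54 ± 0.15 (adjusted p = 0.0434). Its contrast to the mean was −1.09 ± 0.13 (adjusted p = 0.000605). CST4 had 7.63, 8.43 and 7.10 RPKM in siB/siM, against 11.6, 12.5 and 10.3 in siBCL11A and 20.03, 20.5 and 13.9 in siMBNL1 (contrast −0.82 ± 0.11), with no overlap. For CST1 the difference from siBCL11A was lost under 6 of 19 alternatives and for CST4 under 7, without siB/siM replicate 1 or 3 or siBCL11A replicate 2 for both genes, and without siBCL11A replicate 3 for CST1 and siB/siM replicate 2 or siBCL11A replicate 1 for CST4; the contrast to the mean was not lost. The cystatins are near-identical paralogs, and reads may be shared among them.

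TIMP3, the matrix-bound inhibitor of metalloproteinases, had 25.99, 25.9 and 24.1 RPKM in siB/siM, against 36.3, 36.8 and 34.9 in siBCL11A and 33.7, 34.7 and 29.5 in siMBNL1. The combination lay under all 6 single-knockdown libraries, with a difference of −0.49 ± 0.07 from siBCL11A (adjusted p = 0.00312) and −0.35 ± 0.07 from siMBNL1 (adjusted p = 0.00284). TIMP3 was the only 1 of the 9 whose place below both held under all 19 alternatives. ETV1, an ETS family transcription factor, had 4.80, 4.65 and 4.47 RPKM in siB/siM, against 5.97, 5.88 and 5.54 in siBCL11A and 7.01, 6.79 and 6.19 in siMBNL1 (contrast −0.35 ± 0.05, adjusted p = 0.003). It kept its place under 14 alternatives, and lost it without siB/siM replicate 2 or 3 and without siBCL11A replicate 1 or 2. FLJ35776 had 1.58, 1.69 and 1.95 RPKM in siB/siM, 2.35, 2.74 and 3.34 in siBCL11A and 3.17, 3.34 and 4.88 in siMBNL1 (−0.63 ± 0.11). Its place below both was kept under only 6 of 16 alternatives. It was lost with median centring, quantile normalization, a pseudocount of 0.1 and without any 1 siB/siM or siBCL11A library. MAPRE2, a microtubule plus-end protein, TMCC3, an endoplasmic reticulum membrane protein, and AOX1, aldehyde oxidase, had contrasts of −0.25, −0.25 and −0.24. The AOX1 call was lost under 8 of 19 alternatives, among them a pseudocount of 0.1 and each siB/siM library left out. Its place below both was kept under 8 of 19, that of TMCC3 under 8 of 18 and that of MAPRE2 under 11 of 18, and each was lost without any 1 siB/siM or siBCL11A library. With the replicate block AOX1 differed from neither single knockdown and TMCC3 from siMBNL1 only. NDP, the secreted ligand norrin, was under 1.1 RPKM in every knockdown library.

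Of the 40 genes above both single knockdowns, 31 were also farther from siNS than either of them and 8 were nearer to siNS. The remaining 1, COX5B, had its siNS level inside the range of the knockdowns. This split only restates whether the knockdowns of a gene lay above or below siNS. COX5B, a nuclear-encoded subunit of cytochrome c oxidase, had the highest contrast. Its level was 203, 234 and 226 RPKM in siB/siM, against 121, 140 and 181 in siBCL11A and 145, 131 and 149 in siMBNL1, with 170 and 179 in siNS. The siB/siM libraries lay above all others, while siBCL11A replicate 3 stood clear of its own group (contrast 0.62 ± 0.10, adjusted p = 0.00609). TAGLN, the actin-binding protein transgelin of smooth muscle and mesenchymal cells, had 8.38, 7.65 and 8.47 RPKM in siB/siM, against 5.47, 5.84 and 6.21 in siBCL11A and 4.41, 4.50 and 4.20 in siMBNL1, with 2.19 and 2.53 in siNS. No group of TAGLN overlapped another, and the contrast was 0.60 ± 0.05 (adjusted p = 0.000107). ATAD3B, a mitochondrial AAA ATPase, had 11.1, 11.1 and 13.7 RPKM in siB/siM, against 7.81, 7.02 and 7.84 in siBCL11A and 9.37, 7.58 and 9.20 in siMBNL1 (0.50 ± 0.08). TAGLN and ATAD3B kept their place above both under all 19 alternatives. ATAD3B shares near-identical copies, ATAD3A and ATAD3C, so its reads may be divided among them.

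Others of the 40 genes were CHTF18, TONSL, POLD1 and HIST2H3D, while of the gene groups described below the G1/S and replication group had 1 of 37 members above both, the histone group 0 of 12 and the chromatin subunits 1 of 9. CHTF18, a subunit of an alternative clamp loader, had 7.09, 8.59 and 8.71 RPKM in siB/siM, against 4.26, 4.95 and 4.87 in siBCL11A and 5.99, 3.93 and 6.44 in siMBNL1 (0.60 ± 0.11). TONSL, which recovers stalled replication forks, had 12.02, 13.4 and 13.4 RPKM in siB/siM, against 7.57, 8.46 and 10.2 in siBCL11A and 8.64, 7.03 and 9.19 in siMBNL1 (0.56 ± 0.09). POLD1, the catalytic subunit of DNA polymerase delta, had 30.5, 31.7 and 34.1 RPKM in siB/siM, against 19.9, 21.2 and 27.01 in siBCL11A and 23.3, 17.8 and 26.1 in siMBNL1 (0.50 ± 0.11). In all 3 genes every siB/siM library lay above every single-knockdown library, and within siMBNL1 replicate 2, the library with the lowest correlation to GC, had the lowest value. After GC correction CHTF18 and TONSL were still placed above both, whereas POLD1 was not, nor was it with median centring or quantile normalization. HIST2H3D, a histone H3 gene with near-identical copies, had 65.3, 75.5 and 77.6 RPKM in siB/siM, 39.2, 42.9 and 57.5 in siBCL11A and 53.6, 38.7 and 54.7 in siMBNL1 (0.61 ± 0.13), and RABAC1, a prenylated Rab acceptor, had a contrast of 0.56 ± 0.12. The contrasts of HIST2H3D, RABAC1 and POLD1 were lost without siB/siM replicate 2 or 3, and that of CHTF18 without replicate 3. The place above both was lost for each of CHTF18, TONSL, COX5B, HIST2H3D, RABAC1 and POLD1 without siBCL11A replicate 1 and without siB/siM replicate 2 or 3, and for all of these but CHTF18 without siBCL11A replicate 2.

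**Figure D4:**
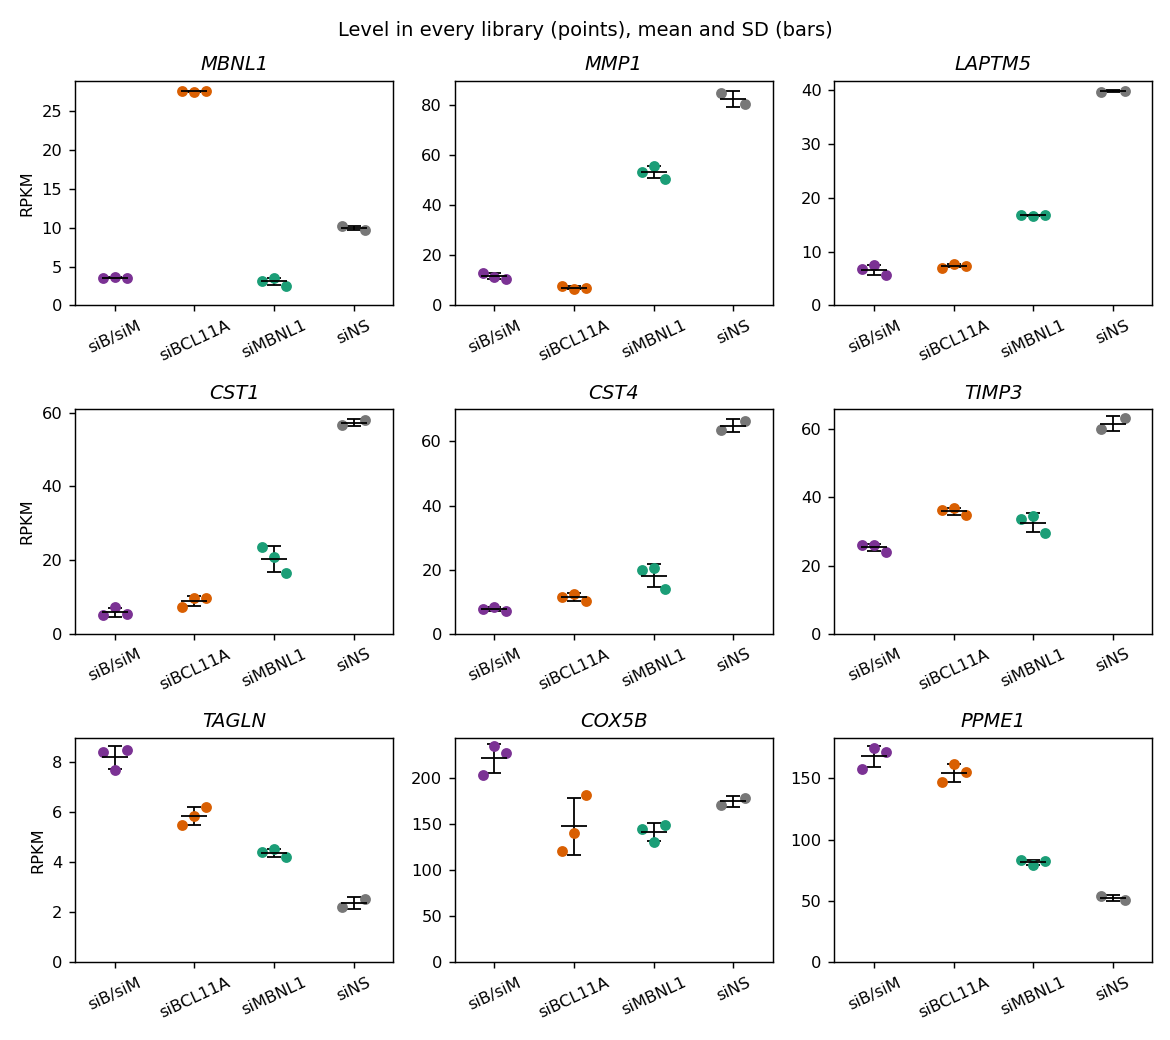
RPKM of 9 genes in every library (points), with mean and SD (bars), for siB/siM, siBCL11A, siMBNL1 (n = 3 each) and siNS (n = 2); each axis starts at 0. MBNL1 in siB/siM sat at its siMBNL1 level, MMP1 between the single knockdowns, LAPTM5 and PPME1 near siBCL11A, CST1, CST4 and TIMP3 below both, and TAGLN and COX5B above both.

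The promoters of genes outside both single knockdowns are shown because BCL11A is known to bind the short motif TGACCA. From RefSeq on build GRCh38.p14, 2521 of the 3149 genes matched a window of 250 bases before to 50 after the start. TGACCA on either strand (read as TGGTCA on the other) was in 14 of 167 promoters of genes called higher (8.38%), 4 of 74 of genes called lower (5.41%), 207 of all 2521 (8.21%) and 10.98% of the 27305 promoters in the whole table. The shares among called genes thus lay near the share of all genes fitted. It was in 2 of the 5 matched promoters of genes below both and in 2 of 26 of genes above both. ETV1 and NKTR are shown with it and TIMP3 and COX5B without it, all chosen after their values were seen; capitals mark the motif.
ETV1 (below both, chr7:13990653-13990952, minus strand): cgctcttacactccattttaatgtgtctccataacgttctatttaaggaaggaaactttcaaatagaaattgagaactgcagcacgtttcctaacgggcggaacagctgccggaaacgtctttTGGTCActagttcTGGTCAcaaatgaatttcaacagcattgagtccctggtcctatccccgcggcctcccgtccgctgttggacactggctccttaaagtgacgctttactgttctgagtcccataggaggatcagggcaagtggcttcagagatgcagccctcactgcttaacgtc
TIMP3 (below both, chr22:32801455-32801754, plus strand): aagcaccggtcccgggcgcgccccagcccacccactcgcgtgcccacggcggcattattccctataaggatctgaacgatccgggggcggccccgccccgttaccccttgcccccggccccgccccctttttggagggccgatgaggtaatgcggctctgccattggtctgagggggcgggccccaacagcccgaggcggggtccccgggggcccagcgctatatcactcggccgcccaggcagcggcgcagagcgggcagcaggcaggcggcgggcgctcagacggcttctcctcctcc
NKTR (above both, chr3:42600436-42600735, plus strand): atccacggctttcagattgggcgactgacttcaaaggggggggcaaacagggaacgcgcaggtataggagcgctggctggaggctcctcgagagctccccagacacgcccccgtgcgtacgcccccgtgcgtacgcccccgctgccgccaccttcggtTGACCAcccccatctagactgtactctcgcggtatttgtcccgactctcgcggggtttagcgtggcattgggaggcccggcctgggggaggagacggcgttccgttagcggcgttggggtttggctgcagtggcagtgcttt
COX5B (above both, chr2:97645812-97646111, plus strand): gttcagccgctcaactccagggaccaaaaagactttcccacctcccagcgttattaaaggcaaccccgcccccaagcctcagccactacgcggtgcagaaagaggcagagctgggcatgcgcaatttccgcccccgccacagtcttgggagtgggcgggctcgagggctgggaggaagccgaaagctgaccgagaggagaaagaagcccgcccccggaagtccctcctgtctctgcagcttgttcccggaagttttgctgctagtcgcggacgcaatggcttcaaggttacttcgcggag
The ETV1 window holds the motif 2 times, both as TGGTCA, and the NKTR window holds it once. NKTR, a cyclophilin-related protein, had 3.76, 3.47 and 3.11 RPKM in siB/siM, against 2.87, 2.86 and 2.61 in siBCL11A and 2.45, 2.41 and 2.33 in siMBNL1 (contrast 0.31 ± 0.06). A match in a window is a description and shows no binding.

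Matrix proteases and their inhibitors had the most genes called lower than the mean of the single knockdowns among the gene groups. Of 15 measured members, 5 were lower and 0 higher by limma (7 and 0 at an unadjusted p under 0.05, beside 27.1% of all genes in either direction), with a group median of −0.09 against 0.04 over all genes. Besides MMP1 and TIMP3, these were PLAT, tissue plasminogen activator (−0.41 ± 0.05), PLAU, urokinase (−0.21 ± 0.04), and MMP14, a membrane-bound collagenase (−0.19 ± 0.05). PLAT had 56.8, 57.5 and 56.9 RPKM in siB/siM, against 60.5, 67.0 and 63.9 in siBCL11A and 93.3, 89.3 and 90.5 in siMBNL1. Its siB/siM libraries lay under all others, yet the difference from siBCL11A did not pass (−0.16, adjusted p = 0.104). MMP14 lay between, with 99.0, 105 and 106 RPKM in siB/siM, 81.5, 86.5 and 87.1 in siBCL11A and 171, 155 and 165 in siMBNL1. PLAUR, the urokinase receptor, lay at the midpoint and had a contrast of 0.02 ± 0.05, with 59.4, 55.3 and 56.3 RPKM in siB/siM, 43.3, 45.6 and 46.4 in siBCL11A and 70.5, 66.9 and 73.2 in siMBNL1. In this group 8 members were lower in siB/siM than in siMBNL1, beside 10.9% of all genes. Against siBCL11A, 3 were higher and 1 lower, beside 7.08% and 1.37% of all genes.

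Matrix, adhesion and cytoskeletal genes were mixed. Of 8 collagens, laminins and other matrix genes, 2 were lower and 0 higher (4 and 1 at an unadjusted p under 0.05), among them TNC, the matrix glycoprotein tenascin C (−0.39 ± 0.06). TNC had 6.89, 6.49 and 6.39 RPKM in siB/siM, against 5.86, 5.51 and 6.12 in siBCL11A and 14.7, 13.9 and 12.1 in siMBNL1, so it stayed near siBCL11A. Of 11 integrin and focal adhesion genes, 1 was lower, the collagen receptor subunit ITGA2 (−0.48 ± 0.06), and 1 higher, the kindlin FERMT2 (0.24 ± 0.05). ITGA2 had 23.97, 22.7 and 21.3 RPKM in siB/siM, 22.1, 21.3 and 22.2 in siBCL11A and 46.6, 50.6 and 42.4 in siMBNL1. Of 11 cell motility genes, 2 were higher and 0 lower (5 and 1 at an unadjusted p under 0.05). The 2 were LIMK1, a kinase of cofilin (0.22 ± 0.06), and ENAH, an actin polymerase cofactor (0.17 ± 0.05). Against siMBNL1, 6 of the 11 were higher, beside 15.5% of all genes. FSCN1, an actin bundler, had a contrast to the mean of 0.22 ± 0.08 (limma, adjusted p = 0.0916). The call of LIMK1 was lost under 11 alternatives, among them median centring, and FERMT2 was lost without siB/siM replicate 2. TAGLN was the only 1 of 4 mesenchymal genes called, and S100A4 had a contrast of −0.08 ± 0.05. Of 7 epithelial genes, KRT7, a simple epithelial keratin, was called (0.20 ± 0.06), but the call was lost under 14 alternatives, and DSP, desmoplakin, was not (0.15 ± 0.05). KRT19 lay between at 209, 214 and 214 RPKM in siB/siM, 159, 172 and 185 in siBCL11A and 264, 240 and 259 in siMBNL1.

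Cell cycle genes lay near the mean of the single knockdowns. None of 36 G2/M and mitosis genes was called by limma, 5 had an unadjusted p under 0.05, beside 27.1% of all genes, and the group median was 0.02. Within this group 8 genes were higher in siB/siM than in siBCL11A, beside 7.08% of all genes. Likewise, 8 were lower than in siMBNL1, beside 10.9% of all genes. AURKA, a spindle pole kinase, was 1 of 3 members between the single knockdowns, with 98.9, 93.9 and 92.5 RPKM in siB/siM, 83.8, 81.6 and 83.7 in siBCL11A and 118, 118 and 115 in siMBNL1. The others were NDC80, a kinetochore protein, and the kinesin KIF20A. The largest contrasts in the group were 0.14 ± 0.05 for CDC25C and 0.14 ± 0.06 for CDC20. Of 37 G1/S and replication genes, 3 were higher and 0 lower (10 and 0 at an unadjusted p under 0.05, a share near the 27.1% of all genes; median 0.08), namely ORC6, an origin recognition subunit (0.28 ± 0.06), E2F1, a transcription factor of S phase entry (0.20 ± 0.06), and GINS3, a helicase subunit (0.18 ± 0.05). ORC6 had 8.09, 7.15 and 6.80 RPKM in siB/siM, above 5.67, 5.27 and 5.66 in siBCL11A and 6.44, 6.26 and 5.82 in siMBNL1. The ORC6 call was lost without siB/siM replicate 1 and with the wider adjustment. Its place above both was kept under 13 of 19 alternatives, and was lost also without siB/siM replicate 2, siBCL11A replicate 2 or siMBNL1 replicate 2 or 3. UHRF1, which maintains DNA methylation, had 0.21 ± 0.07 (adjusted p = 0.0717). None of 8 cell cycle kinases and inhibitors was called (1 at an unadjusted p under 0.05); CDK2 had a contrast of 0.13 ± 0.05 and CCND3 of 0.10 ± 0.06.

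Replication-dependent histone genes had the highest group median, 0.20, with 3 of 12 called higher and 0 lower (10 and 0 at an unadjusted p under 0.05). The median was 0.17 with median centring and 0.14 with quantile normalization. HIST1H2AM had 342, 368 and 367 RPKM in siB/siM, against 239, 254 and 282 in siBCL11A and 303, 271 and 355 in siMBNL1 (contrast 0.35 ± 0.08). Its lowest siB/siM library was below the highest siMBNL1 library, and above all siBCL11A libraries. HIST1H2AG (0.31 ± 0.09) and HIST1H3B (0.26 ± 0.07) were called too. Of the 12 genes, 7 were higher than in siBCL11A, beside 7.08% of all genes, while 0 were called against siMBNL1, beside 26.4%. The calls of HIST1H2AM and HIST1H2AG were lost with median centring and without siB/siM replicate 2 or 3. Histone gene copies are nearly identical, their transcripts lack poly(A) tails, and single copies are uncertain.

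**Figure D5:**
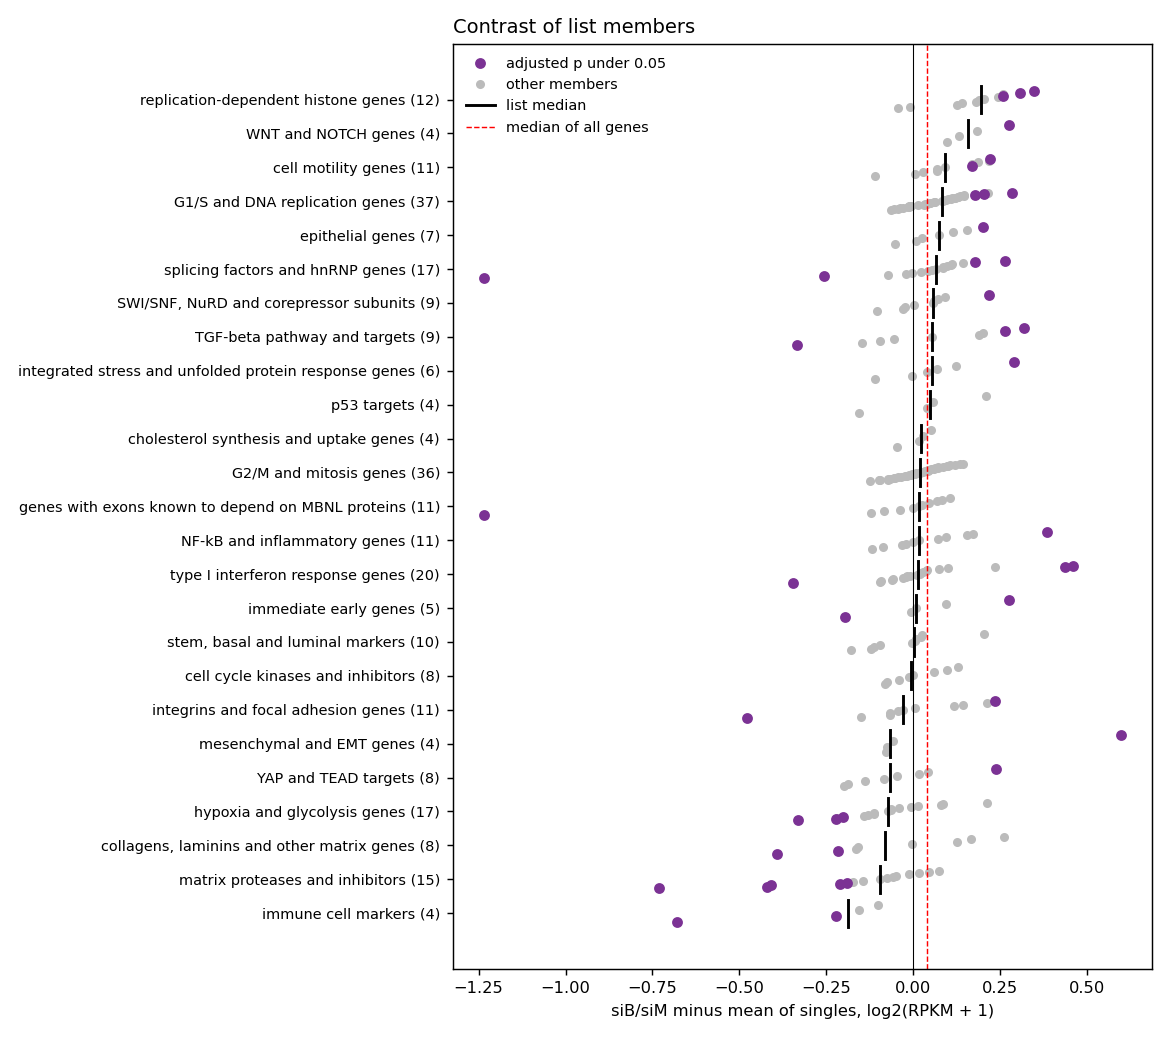
Contrast of siB/siM to the mean of the single knockdowns, log2(RPKM + 1), for the members of each gene group with at least 4 measured members (number in brackets); coloured points passed an adjusted p under 0.05, black bars are group medians and the dashed line is the median of all genes, 0.04. Histone genes lie highest (median 0.20), matrix proteases (−0.09) and immune markers (−0.19) lowest, and G2/M genes cluster around 0.02.

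Signalling and stress groups each held few calls. Of 11 NF-kB and inflammatory genes, the cytokine IL6 was called, with 9.80, 10.4 and 8.96 RPKM in siB/siM, 8.26, 10.997 and 10.2 in siBCL11A and 5.81, 5.996 and 4.07 in siMBNL1 (0.39 ± 0.11). IL6 thus lay at the siBCL11A level, above siMBNL1, and its call was lost under 7 alternatives. ICAM1 had 0.17 ± 0.05. Among 20 type I interferon response genes, 2 were higher and 1 lower (3 and 1 at an unadjusted p under 0.05). ISG15, a ubiquitin-like modifier (0.46 ± 0.09), and IRF7, a transcription factor of the response (0.44 ± 0.11), were higher. IFITM1, a membrane protein that restricts viral entry (−0.34 ± 0.07), was lower. ISG15 had 126, 135 and 140 RPKM in siB/siM, against 80.8, 93.6 and 106 in siBCL11A and 106, 88.6 and 111 in siMBNL1, with 174 and 180 in siNS, so that the combination lay above both and nearer to siNS. The ISG15 call was lost without siB/siM replicate 3 and with the wider adjustment. Its place above both was kept under 14 of 19 alternatives, and was lost also without siB/siM replicate 2 or siBCL11A replicate 1 or 2. The IRF7 call was kept under 11 of 18. It was lost without siB/siM replicate 2 or 3 or siBCL11A replicate 2, and with quantile normalization, a pseudocount of 0.1, the wider adjustment and GC correction with the replicate block. IRF7 was placed with siMBNL1, and the libraries of siB/siM and siMBNL1 overlapped. Of 17 hypoxia and glycolysis genes, 3 were lower and 0 higher (5 and 0 at an unadjusted p under 0.05; median −0.07), the glucose transporter SLC2A3 (−0.33 ± 0.05), PFKFB4, a regulator of glycolysis (−0.22 ± 0.06), and the angiogenic factor VEGFA (−0.20 ± 0.05). SLC2A3 had 5.49, 5.18 and 5.29 RPKM in siB/siM, 4.57, 4.75 and 4.88 in siBCL11A and 10.1, 10.3 and 9.63 in siMBNL1. All 3 were placed with siBCL11A, below siMBNL1. The PFKFB4 call was lost under 7 of 19 alternatives, the wider adjustment and without siBCL11A replicate 2 or 3, siB/siM replicate 2 or 3 or siMBNL1 replicate 1 or 2.

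Of 9 TGF-beta genes, 2 were higher and 1 lower (4 and 2 at an unadjusted p under 0.05). ID3, an inhibitor of helix-loop-helix factors (0.32 ± 0.08), and the ligand BMP4 (0.26 ± 0.05) were higher and LTBP1, which holds latent TGF-beta in the matrix (−0.33 ± 0.05), was lower. All 3 again sat near siBCL11A: LTBP1 had 8.78, 7.74 and 7.75 RPKM in siB/siM, 8.74, 9.28 and 9.03 in siBCL11A and 12.6, 12.03 and 11.6 in siMBNL1. The ID3 call was lost under 9 alternatives. Among 8 YAP and TEAD targets ANKRD1, a stretch-responsive cofactor, was higher (0.24 ± 0.05), and WWTR1, the coactivator TAZ, had −0.20 ± 0.07 (adjusted p = 0.0886). Of 4 WNT and NOTCH genes, MYC was higher (0.28 ± 0.06), with 55.6, 55.0 and 59.0 RPKM in siB/siM, 52.8, 53.2 and 55.6 in siBCL11A and 41.0, 36.4 and 43.4 in siMBNL1, and the WNT coreceptor LRP5 had 0.18 ± 0.07. ATF4, the transcription factor of the integrated stress response, was the only 1 of 6 stress genes called (0.29 ± 0.05), with 105, 103 and 101 RPKM in siB/siM, 101, 108 and 105 in siBCL11A and 68.4, 65.3 and 68.3 in siMBNL1; HSPA5, an endoplasmic reticulum chaperone, had 0.12 ± 0.09. Of 5 immediate early genes, MYC was higher and the phosphatase DUSP6 lower (−0.20 ± 0.05), a call lost under 11 alternatives. MYC and ANKRD1 were lost without siB/siM replicate 2, MYC also without replicate 3 and ANKRD1 without replicate 1, and ATF4, SLC2A3, LTBP1, TNC and ITGA2 kept their calls under all 19 alternatives.

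Several groups had no gene called. None of 10 stem, basal and luminal markers passed by limma (2 at an unadjusted p under 0.05), with KLF4 at 0.20 ± 0.07 and SPDEF at −0.12 ± 0.09. None of 4 p53 targets passed (2 at an unadjusted p under 0.05), with GDF15 at 0.21 ± 0.09 and CCNG1 at −0.16 ± 0.06. None of 4 cholesterol genes, 1 cytosolic ribosomal protein gene or 2 mitochondrial ribosome genes passed (0 in each at an unadjusted p under 0.05), and neither did 2 small RNA pathway genes (1 at an unadjusted p under 0.05). FDFT1 of cholesterol synthesis had 0.05 ± 0.05, RPS3 had 0.04 ± 0.05, MRPL47 and MRPS27 had 0.08 ± 0.06 and −0.04 ± 0.05, and XPO5 and TNRC6B had 0.14 ± 0.05 and −0.07 ± 0.05. FDFT1 and RPS3 changed sign with quantile normalization. A p that missed the threshold does not show equality.

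Among splicing factors, 2 of 17 were higher and 2 lower, MBNL1 included, beside 7.08% and 3.56% of all genes. At an unadjusted p under 0.05, 5 were higher and 2 lower. PTBP1, a repressor of exon inclusion, had 130, 138 and 138 RPKM in siB/siM, against 109, 115 and 118 in siBCL11A and 116, 105 and 111 in siMBNL1 (0.27 ± 0.05), and lay above both. RBM39, a splicing coactivator, was higher as well (0.18 ± 0.05). PTBP3, a paralog of PTBP1, lay between and was lower than the mean (−0.26 ± 0.06), with 6.75, 7.22 and 6.15 RPKM in siB/siM, 5.47, 5.52 and 5.15 in siBCL11A and 11.7, 13.4 and 11.6 in siMBNL1. The PTBP1 call was lost without siB/siM replicate 2 or 3. Its place above both was kept under 10 of 19 alternatives, and with GC correction, with or without the replicate block, median centring or quantile normalization only the difference from siMBNL1 was called. Of 11 genes listed for known MBNL-dependent exons, MBNL1 alone was called, and MAP4K4 had −0.12 ± 0.05. Of 9 chromatin subunits, BRD9 of the SWI/SNF family was higher (0.22 ± 0.05), with 26.6, 26.5 and 26.1 RPKM in siB/siM, 21.4, 22.8 and 23.1 in siBCL11A and 23.1, 21.9 and 22.99 in siMBNL1, a call lost without any 1 siB/siM library, and a place above both lost with median centring and quantile normalization; EED of the Polycomb group had −0.10 ± 0.07.

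Among markers of other cell types, 2 immune markers were lower in siB/siM than the mean of the single knockdowns. Of 8 immune markers, 4 had values (CD14, CSF1R, CD68 and LAPTM5), 2 of these were called lower, LAPTM5 and CD68 (−0.22 ± 0.06), and 0 higher (3 and 0 at an unadjusted p under 0.05). The CD68 call was kept under 10 of 19 alternatives and lost with a pseudocount of 0.1, with the wider adjustment and without siB/siM replicate 1, 2 or 3, siBCL11A replicate 1 or 2 or siMBNL1 replicate 1 or 2. The summed level of all 4 was 33.4 to 35.3 RPKM in siB/siM, 35.2 to 39.1 in siBCL11A and 50.1 to 55.6 in siMBNL1. The defining markers PTPRC, CD3E and ITGAM were not among the genes with values, and CD14 was under 0.5 RPKM in every knockdown library. Of 8 endothelial and fibroblast markers only PDGFRB and COL1A1 had values, neither passed (0 at an unadjusted p under 0.05), and their sum was 1.36 to 1.56 RPKM in siB/siM, 0.946 to 1.39 in siBCL11A and 1.55 to 1.68 in siMBNL1. The libraries came from cultures of the MDA-MB-231 line, so these levels are read as those of its cells, and the presence of other cells was not tested.

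Exon inclusion was compared by value only, because the authors' deposited exon lists hold 1 fraction per group with no replicates and unknown depth. They list 146 cassette exons for siB/siM, 107 for siBCL11A and 110 for siMBNL1, and 14 exons stand in all 3 lists. At 9 of the 14 the siB/siM inclusion lay between the single knockdowns, at 4 below both and at 1 above both; it was nearer to siBCL11A at 7 and to siMBNL1 at 7. The median contrast was −0.00869 in inclusion. At 2 exons the single knockdowns lay on opposite sides of siNS, and there the combination stood at the siMBNL1 level. The 39-base exon of KIF13A, a kinesin motor (hg19 chr6:17790103-17790141), had an inclusion of 0.457 in siB/siM, 0.920 in siBCL11A and 0.430 in siMBNL1, with 0.716 in siNS. The 130-base exon of the integrin subunit ITGA6 (hg19 chr2:173366500-173366629) had 0.194 in siB/siM, 0.550 in siBCL11A and 0.202 in siMBNL1, with 0.380 in siNS. MBNL1 RNA was also low in siB/siM and siMBNL1 and high in siBCL11A, as given above. However, siB/siM lay slightly under siMBNL1 for the ITGA6 exon and slightly over it for MBNL1 RNA. A link between MBNL1 level and these exons was not tested. The other 12 exons moved in the same direction from siNS in all 3 knockdowns, for example that of SENP7, a SUMO protease, at 0.804 in siB/siM, 0.750 in siBCL11A and 0.892 in siMBNL1, with 0.359 in siNS. Of the 146 genes with an exon in the siB/siM list, 36 were among the genes fitted and 5 of these were called against the mean of the single knockdowns (GPR116, MPG, PTBP1, XYLT2 and ZNF271), a share of 13.9% beside 10.6% of all genes.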

How the data were processed

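RNA-seq of 9 libraries was compared, grouped by sample title. The deposited RPKM values were made by the authors on genome build hg19, per the submitters' processing notes. No label or file header names the aligner or counter. The fraction values (exon inclusion) and the p-values of the authors' test against siNS are also the authors' deposited values. All p-values of the contrasts come from the limma fit described below. The authors' deposited log2 columns were not used. Depth was worked out from read steps in RPKM. Gene lengths were chosen to give whole reads in siB/siM and siNS, so the 100% within 0.1 of a whole read there was set in advance. In the siBCL11A and siMBNL1 libraries, 73.9% to 96.2% of the values used came within 0.1 of a whole read.

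RPKM was transformed as log2(RPKM + 1), so changes of low genes are understated. A cell-means model of 3 groups was fitted with limma 3.58.1 in R 4.3.3 without trend or robust options, with Benjamini-Hochberg adjustment over 3149 genes and calls at an adjusted p under 0.05. Transcript GC, matched for 2955 genes, came from GENCODE transcripts. The procedure was tested on simulated data with independent noise for each gene and library. The simulation held no shifts shared across the genes of a library, so it does not bear on the deviations with GC content. Alternatives were another pseudocount, other scalings, a filter at 5 RPKM, adjustment over 23227 genes, all 4 groups in the fit, trend and robust options, the replicate number as a block and leaving out each library; GC correction was added after seeing the data.

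Named genes were the 8 highest and 8 lowest called contrasts, the 8 genes farthest above and the 8 farthest below both single knockdowns, the 2 largest contrasts of each list and the siRNA targets, at 2 RPKM or more in a group; short RNAs were left out. Other genes named in the text were chosen after their values were seen. The comparison, members and lists were chosen with earlier results of these data known. A few genes that the rule or the lists would name are not reported here.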

Additional observations from a re-analysis of the deposited data

How the results depend on the processing

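The count of 335 genes called was 39 when adjusted over all genes of the authors' test and 86 to 377 with 1 library left out. Against siBCL11A, 266 genes became 19 under that adjustment, 144 with quantile normalization and 36 to 349 with 1 library left out, and against siMBNL1 832 became 364 under that adjustment. The 40 genes above both became 2 under that adjustment, 22 with median centring, 15 with quantile normalization and 4 to 53 with 1 library left out. The 9 genes below both became 1 under that adjustment, 4 with a pseudocount of 0.1, 14 with quantile normalization, 35 with GC correction, 33 with GC correction and the replicate block, and 1 to 20 with 1 library left out. The 63 genes between became 7 under that adjustment, 102 with GC correction and 11 to 73 with 1 library left out. Contrasts of at least 0.5 numbered 45 instead of 21 with a pseudocount of 0.1. The median relative position of 0.73 was 0.764 with GC correction, with or without the replicate block, 0.758 with median centring, 0.761 with quantile normalization and 0.778 on the RPKM scale. With quantile normalization the contrasts of FDFT1 and RPS3 were −0.0039 and −0.057, below 0. The cause of these shifts was not tested. The wider adjustment can only raise adjusted p-values, and each left-out library leaves fewer libraries in the fit. Leaving out a library did not always lower the counts. Without siMBNL1 replicate 3, 377 genes were called against the mean of the single knockdowns and 349 against siBCL11A.

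With the replicate number as a block 293 genes were called. Same-numbered libraries deviated together between siB/siM and siBCL11A (r of 0.33, 0.19 and 0.18) but not throughout between siB/siM and siMBNL1 (−0.22, −0.12 and 0.18) or siBCL11A and siMBNL1 (−0.22, −0.11 and 0.24), so the numbers were not taken as pairs. The highest values joined different numbers, siMBNL1 replicate 2 with siB/siM replicate 1 (0.34) and with siBCL11A replicate 1 (0.37). Other pairs of different numbers went down to −0.30. A block by number does not join these libraries. For the named genes, 1168 results under alternatives kept their side of the threshold and direction, 140 lost a call, 28 gained one and 2 changed sign.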
